A study of Rattus norvegicus with 10 samples.

Results

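The clustered protocadherin locus was described here as the interval of chromosome 18 from 29300000 to 30900000 of the rat RN4 assembly. It is 1.6 Mb wide and was expected to hold the alpha, beta and gamma protocadherin clusters, which was not checked. Its members were all captured regions that lay wholly inside these bounds, 272 regions of 24725 on chromosome 18 and of 716492 in the whole matrix. The rule uses positions alone, although the interval was picked with earlier results of these data known, and the other 24453 regions of chromosome 18 served as background. DNA was taken from adult male Sprague-Dawley rats, an outbred strain, 3 months after surgery. Of 10 rats, 5 had received lateral fluid-percussion traumatic brain injury (TBI) over the left parietal cortex, and 5 were sham controls that had the same anaesthesia and craniectomy without the impact. The study's methods count fewer controls for this model than the labels and the table hold, which rat that concerns is not stated, and all labelled rats were used. Each library came from 1 rat and from left hippocampal tissue holding the CA3 field and the dentate gyrus, labelled dorsal hippocampus. Rats are numbered within their group, in the order of the rat numbers in the labels. Fragments of methylated DNA were enriched by a methyl-binding protein before sequencing (Methyl-Seq), and a tag is 1 sequenced fragment counted in a region. A tag count depends on the CpG content of the fragment, the efficiency of capture and the genome sequence of the rat as well as on methylation. In such tissue, fewer cells with methylated copies and fewer methylated copies per cell cannot be told apart. Captured DNA holds no expression values, so the tissue label was not checked against marker genes.

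Clustered protocadherins are cell-adhesion proteins of neurons, encoded in a row of alpha, beta and gamma clusters. In the alpha and gamma clusters, many long variable exons lie one after another, each with its own promoter, and are spliced to constant exons shared by the cluster, whereas beta genes are single-exon genes. A neuron uses a few of these promoters, chosen largely at random, and the combination gives the cell an identity by which its processes recognise themselves. DNA methylation of the promoters and binding of CTCF, a factor that shapes chromatin loops, are part of how the choice is made.

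Neither whether the interval holds these clusters nor which bins hold alpha, beta or gamma genes was checked. Gene positions of RN4 were not used here. The family was therefore described from RefSeq's GRCr8 annotation, by gene names and order alone. From Hars1, Hars2 (histidyl-tRNA synthetases) and Zmat2, the order ran through 1 alpha gene model, Pcdha4, which carried 14 alpha names among its synonyms, then 22 beta genes, Taf7 and Slc25a2, and then 16 gamma genes, 1 of them a pseudogene, before Diaph1 and Hdac3. Promoters of 300 bases (250 before and 50 after the start) were matched for 35 of these 39 genes. They held a median of 6 CpG dinucleotides (range 1 to 28), beside 7 over all 33469 rat promoters in the table. The median was 5 in 19 beta promoters and 8 in 15 gamma promoters. The alpha cluster had 1 promoter in the set, that of Pcdha4, so other alpha promoters are not covered. CpG is the site of methylation and of capture, so 1 promoter of each cluster at its cluster's median and the promoter with most CpG, that of Pcdhgc3 with 28, are shown to let the sparse and the dense kind be compared. Each is the strand of the gene, 5′ to 3′, with CpG in capitals.
Pcdha4: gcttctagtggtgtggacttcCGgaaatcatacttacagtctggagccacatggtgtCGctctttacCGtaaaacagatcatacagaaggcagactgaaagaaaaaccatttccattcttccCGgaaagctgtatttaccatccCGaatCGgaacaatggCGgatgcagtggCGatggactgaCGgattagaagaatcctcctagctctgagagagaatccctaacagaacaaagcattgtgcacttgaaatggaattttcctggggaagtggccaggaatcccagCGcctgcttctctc
Pcdhb1: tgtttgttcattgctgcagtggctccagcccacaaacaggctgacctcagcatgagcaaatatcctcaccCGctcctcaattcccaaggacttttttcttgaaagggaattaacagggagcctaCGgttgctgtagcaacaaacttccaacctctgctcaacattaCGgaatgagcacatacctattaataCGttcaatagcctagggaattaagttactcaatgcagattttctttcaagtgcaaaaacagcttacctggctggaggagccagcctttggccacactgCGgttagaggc
Pcdhga7: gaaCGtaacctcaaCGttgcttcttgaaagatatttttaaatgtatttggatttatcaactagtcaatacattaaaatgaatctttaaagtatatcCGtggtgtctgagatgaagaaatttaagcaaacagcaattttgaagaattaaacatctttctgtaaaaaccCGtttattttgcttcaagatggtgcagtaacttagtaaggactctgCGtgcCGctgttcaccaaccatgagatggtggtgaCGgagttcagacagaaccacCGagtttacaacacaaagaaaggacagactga
Pcdhgc3: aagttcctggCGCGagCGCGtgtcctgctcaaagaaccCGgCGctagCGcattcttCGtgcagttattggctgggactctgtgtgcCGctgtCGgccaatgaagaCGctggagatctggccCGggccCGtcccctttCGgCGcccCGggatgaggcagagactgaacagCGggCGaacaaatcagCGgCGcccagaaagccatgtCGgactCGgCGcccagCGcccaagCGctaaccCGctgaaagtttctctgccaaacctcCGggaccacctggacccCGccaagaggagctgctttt
Pcdha4 held 10 CpG, Pcdhb1 held 5 and Pcdhga7 held 8, beside 28 in Pcdhgc3 over the same length. Promoter positions of GRCr8 were not matched to the captured regions, which carry RN4 positions.

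Library depth ranged from 13597924 to 21672940 tags, of which 11285 to 21687 lay in the locus. The library of sham rat 5 stood apart from the other 9. Only 8.27% of its tags lay in the strongest 1% of regions outside chromosome 18, beside 11.5% to 15.0% in the other rats, and only 5 locus regions had no tag in it, beside 13 to 44. The main comparisons between the groups are given with and without this rat.

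The locus held few regions, but more of these were long and rich in tags than elsewhere on the chromosome. Regions entered the table where some pair of libraries differed, so stretches captured alike in all rats may be missing from these counts and lengths. It had 170.0 regions per Mb, beside 285.5 in the rest of chromosome 18, and regions covered 16.03% of it, beside 19.9%. The median gap between neighbouring regions was 2131 bp in the locus and 1185 bp elsewhere. The median length hardly differed, 577.5 bp beside 565 bp, but the upper quartile was 1116 bp beside 803 bp. The locus carried 61.7 tags per kb of region and rat against 34.1 in the rest of the chromosome. The density of single regions had a median of 30.1 against 21.3 tags per kb and rat.

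Among 54 consecutive windows of 1.6 Mb along chromosome 18, the locus ranked 42 from the top in number of regions and 31 in covered length. In tags per kb of region it ranked 2, where the other windows had a median of 28.9 and a highest value of 73.1. These ranks describe 1 interval and carry no test.

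Long regions carried most of the locus's tags. Regions of 2 kb or longer, a length chosen after the values were seen, numbered 38 of 272 (14.0%), beside 558 of 24453 (2.28%) elsewhere on the chromosome. They held 58.5% of the locus's tags, beside 16.6% in the rest. The locus ranked 3 of the 54 windows in number of such regions, where the other windows had a median of 6 and at most 50. Long regions were also dense, with 91.3 tags per kb and rat in the locus and 64.6 elsewhere, and shorter regions had 42.3 against 31.2. Of the locus's regions, 38 (14.0%) were in the top 5% of the chromosome both by length (over 1567 bp) and by tags per kb (over 73.8), as were 238 (0.973%) of the other regions. The longest 3 lay at chr18:29682336-29685995 (3659 bp), chr18:30673013-30676662 (3649 bp) and chr18:30664158-30667667 (3509 bp).

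**Figure D1:**
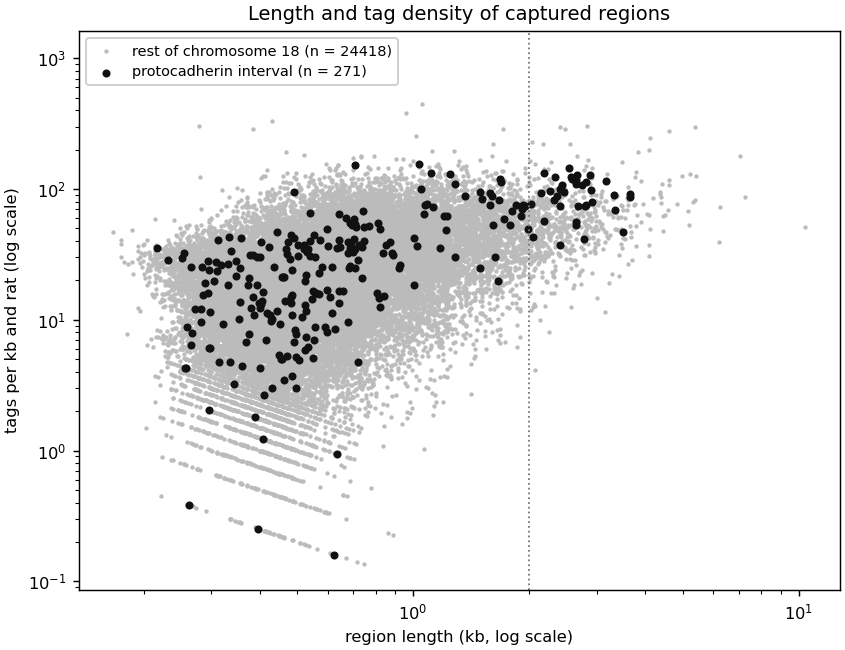
Length in kb (horizontal, log scale) and tags per kb and rat (vertical, log scale) of each region with at least 1 tag, for the locus (black) and the rest of chromosome 18 (grey), with a dotted line at 2 kb. The 38 locus regions to the right of the line lie toward the upper part of the plot, whereas shorter locus regions are spread over the same range as the grey points.

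The higher density of the locus was present in every rat. Tags per kb in the locus divided by tags per kb in the rest of the chromosome gave 1.87, 1.60, 1.92, 2.16 and 1.29 in sham rats 1 to 5, and 1.73, 1.83, 1.98, 1.80 and 1.80 in TBI rats 1 to 5. The lowest value was that of sham rat 5 and the highest that of sham rat 4, so that the 5 TBI rats lay inside the range of the sham rats. The mean log2 ratio was 0.83 ± 0.20 (SD, n = 10), 1.78-fold, and it was above 0 in 10 of 10 rats. An exact sign-flip permutation test over rats, two-sided, gave p = 0.00195, the smallest that 10 rats allow, and adjusted p = 0.00977 over 5 tests of the whole locus. The test covers rats and not the choice of interval. All rats were counted over the same regions, so a CpG content that they share enters every ratio. The p-value therefore lends the interval no support beyond the values themselves.

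Along the locus, the bin with most tags was not the bin with most regions. Of 32 bins of 50 kb, 31 held regions, and the bin at 1100 kb from the start held none. The bin at 150 kb had most regions, 20, followed by those at 1250 kb with 19 and 1300 kb with 18. Tags peaked elsewhere, in the bins at 400 kb (2150 tags per rat, 13.6% of the locus) and 350 kb (2062, 13.0%), which held only 10 and 8 regions. The bin at 1300 kb came next with 1459 tags per rat (9.22%).

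**Figure D2:**
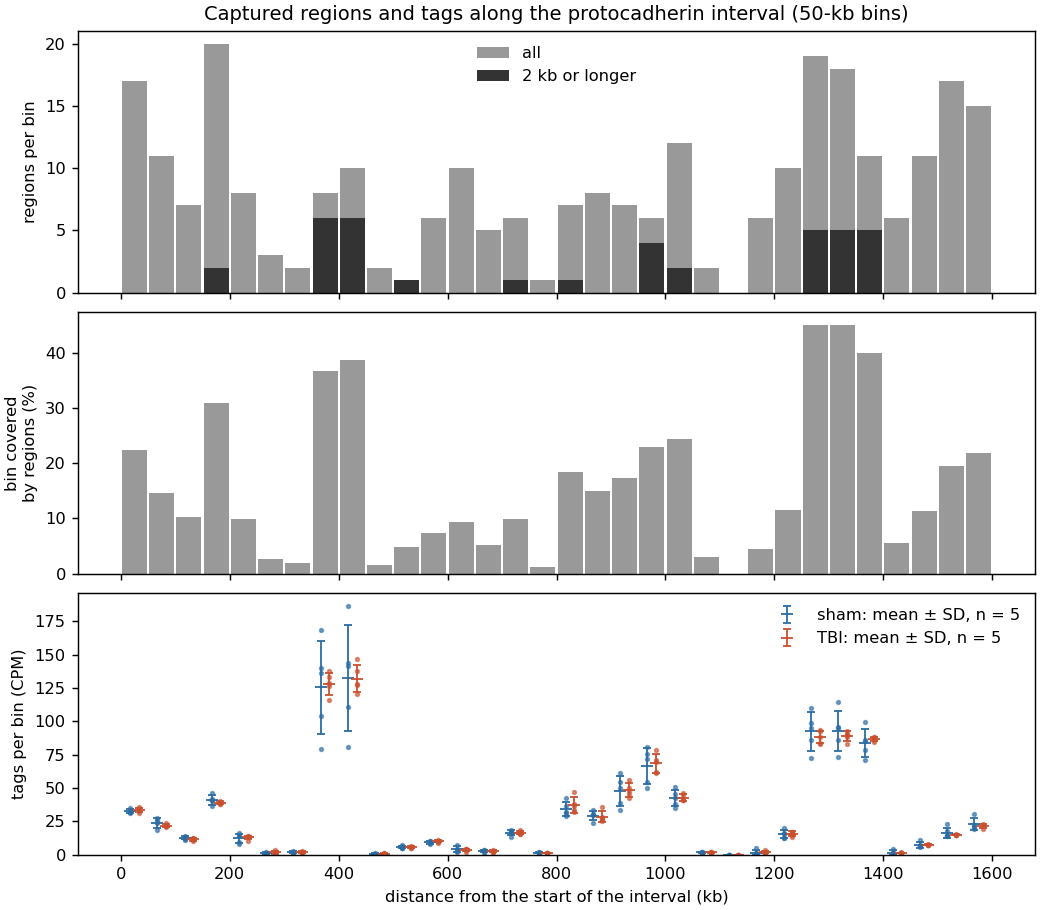
Regions per bin (top, those of 2 kb or longer in black), percent of each bin covered by regions (middle) and TMM-scaled tags per bin in CPM (bottom, points for rats, bars for mean ± SD of 5 sham and 5 TBI rats) against distance from the start of the interval in kb. The bins at 350 and 400 kb stand above all others in tags with 8 and 10 regions, and the sham bars are wider there than the TBI bars.

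Bins with over 55 tags per kb and rat, a level chosen after the values were seen, formed 3 groups of 2 or more neighbours, and these groups held all but 4 of the 38 long regions and most of the tags. The first, from 350 to 450 kb, contained 18 regions (6.62% of the locus) and 26.6% of its tags, at 111.7 tags per kb and rat. Its 12 long regions, all between 2542 and 3659 bp (median 2706), held 92.9% of its tags. They followed one another from 29660846 to 29750116 with starts 5.18 to 13.3 kb apart (median 6.73). The second, from 800 to 1050 kb, held 40 regions and 22.9% of the tags at 73.8 tags per kb, with 7 long regions. The third, from 1250 to 1400 kb, held 48 regions and 27.1% of the tags at 65.9 tags per kb. Its 15 long regions, of 2338 to 3649 bp (median 2770), ran from 30568644 to 30676662 with starts 3.38 to 23.5 kb apart (median 5.54). The remaining 22 bins held 166 regions (61.0%) but 23.4% of the tags at 35.4 tags per kb, with 4 long regions.

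The regions with most tags illustrate these rows. The first was chr18:29690836-29693708 (2872 bp), with 298, 222, 491, 601 and 201 tags in sham rats 1 to 5 and 248, 334, 463, 391 and 447 in TBI rats 1 to 5. Scaled by depth (CPM, tags divided by TMM-scaled library size), the sham mean was 22.8 ± 7.62 and the TBI mean 22.5 ± 1.76 (SD, n = 5 each). Sham rat 4 was highest and sham rat 5 lowest, and all TBI rats lay between them. The next 3 in tag number, chr18:29670513-29673055, chr18:29660846-29664018 and chr18:29734257-29736919, lay in the same group of bins with 3674, 3655 and 3438 tags over all rats. The fifth, chr18:30673013-30676662 with 3370 tags, closed the row near 1400 kb. In all 5 the sham and TBI means differed by less than the SD of the sham rats.

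In the long regions of the locus, a pair of sham rats stood at opposite ends of the 10 rats. The within-group SD of log2 CPM had a median of 0.332 (quartiles 0.275 and 0.446) over the 154 locus regions that passed the filter on low counts, beside 0.380 (0.284 and 0.503) over 11893 regions in the rest of the chromosome. Under 300 tags the medians were 0.446 in 60 locus regions and 0.458 in 6363 others. From 300 to 1000 tags they were 0.291 in 36 and 0.313 in 4629. Among regions with 1000 tags or more, the medians were 0.291 in 58 locus regions and 0.256 in 901 others. Without sham rat 5 these became 0.223 and 0.193. Over the 38 long regions, sham rat 4 was the highest of the 10 rats in 31 and sham rat 5 the lowest in 27. The median deviation from the other rats over them was 0.40 log2 units in sham rat 4 and -0.55 in sham rat 5. The remaining rats lay between -0.20 and 0.13.

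Equally long and dense regions elsewhere on the chromosome showed like values. Over the 238 regions outside the locus in the top 5% by both length and tags per kb, the median deviation was 0.32 in sham rat 4 and -0.58 in sham rat 5. Over the 38 such regions of the locus it was 0.42 and -0.55. Across the 31 bins that held regions, the deviation of sham rat 5 was more negative where tags per kb were higher (Pearson's r -0.799 and Spearman's rho -0.729, across bins that share 1 library). In the first group of bins, sham rats 1 to 5 had 277.0, 214.0, 283.8, 355.2 and 160.0 CPM and TBI rats 1 to 5 had 236.1, 270.4, 284.2, 257.1 and 253.4. The means were 258 ± 74.2 and 260 ± 18.1, and without sham rat 5 the sham mean was 283 ± 57.8, above that of the TBI rats. The second group of bins had means of 220 ± 37.3 in sham and 226 ± 23.0 in TBI rats, and the third 269 ± 39.7 and 264 ± 8.73. In the remaining 22 bins, summed, the means were 234 ± 9.95 and 227 ± 5.10. A sum over 22 bins evens out the spread of single bins, so these SDs are not alike in scale. In single bins outside the groups, the within-group SD of log2 CPM ran from 0.0711 (0 kb) to 1.18 (1150 kb). It was 0.308 and 0.331 in the dense bins at 350 and 400 kb.

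**Figure D3:**
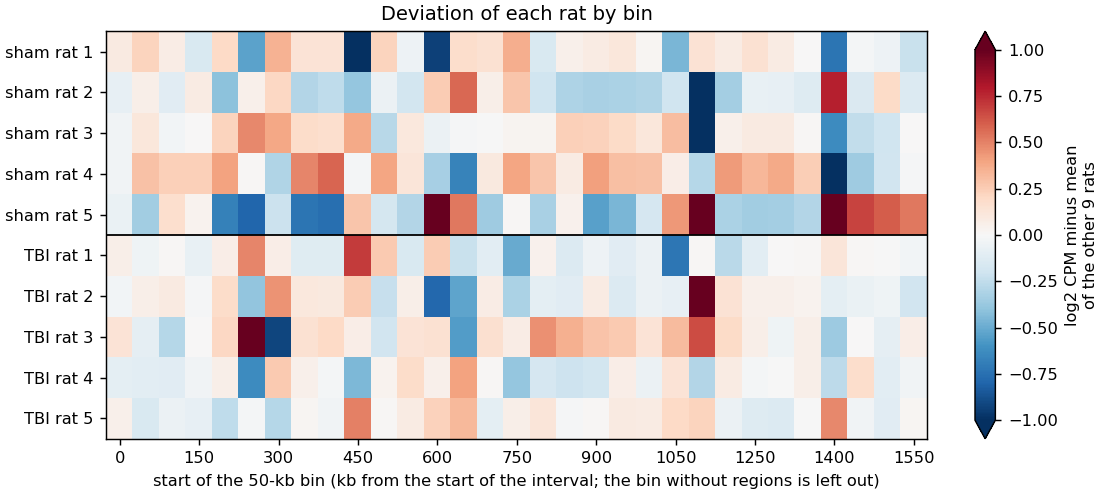
Deviation of each rat's log2 CPM from the mean of the other 9 rats (colour, log2 units, limited at 1 in either direction) in each 50-kb bin with regions, by distance of the bin from the start of the interval in kb. Sham rat 5 is blue and sham rat 4 red in the dense bins at 350 and 400 kb, and the strongest colours elsewhere fall in bins with few tags.

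The share of a rat's chromosome 18 tags that lay in the locus was higher in libraries with more of their tags in strong regions elsewhere. It was 2.73, 2.35, 2.81, 3.16 and 1.91% in sham rats 1 to 5, and 2.54, 2.68, 2.89, 2.64 and 2.64% in TBI rats 1 to 5. Against the percent of tags in the strongest 1% of regions outside chromosome 18, Pearson's r was 0.943 (permutation p = 0.00024) and Spearman's rho 0.855 (permutation p = 0.00327), n = 10. Without sham rats 4 and 5, the farthest from the median, r was 0.768 (permutation p = 0.0281) and rho 0.714 (permutation p = 0.0570), n = 8. This was the only relation of its kind computed. Because the locus is itself rich in dense regions, much of this relation was to be foreseen. Its p-values therefore say nothing particular to the locus.

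The least variable tested regions lay in the third group of bins. At chr18:30645810-30648457 the within-group SD was 0.0955, with 112, 108, 184, 182 and 141 tags in sham rats and 129, 125, 181, 158 and 165 in TBI rats. That is 9.35 ± 0.641 and 9.18 ± 0.597 CPM, and sham rat 5 lay inside the range of the other sham rats. The next 2, chr18:30664158-30667667 and chr18:30655845-30658658, had SDs of 0.124 and 0.136. All 3 were long regions with 47.0 to 75.4 tags per kb and rat, less than the rows near 350 kb.

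The most variable of the tested regions were under 1 kb long and held few tags. At chr18:30483166-30483668 (SD 1.36) the tags were 13, 0, 0, 17 and 12 in sham rats 1 to 5 and 9, 42, 32, 9 and 20 in TBI rats 1 to 5. It was the only locus region with 0 tags in 2 or more rats and at least 20 in 2 or more others, and its groups overlapped. Below that level, the untested chr18:29555273-29555796 had 13, 42 and 13 tags in TBI rats 1, 3 and 5 and 0 in all others. At chr18:29909078-29909337, also not tested, the same TBI rats had 8, 12 and 3 tags and all others 0. At chr18:30235020-30235858 (SD 1.22) TBI rat 3 had 0 tags, where the other 9 rats had 18 to 50. At chr18:30173906-30174379 (SD 1.12) sham rats 1 to 5 had 4, 6, 6, 3 and 55 tags and TBI rats 1 to 5 had 15, 10, 17, 26 and 45, so that sham rat 5 was above every other rat and the other 4 sham rats below every TBI rat. TBI rat 3 differed over 2-fold from the other rats in 8 tested locus regions (5.19%), beside 1.70% of those elsewhere on the chromosome, and sham rat 5 did so in 17 (11.0%), beside 17.2%.

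Between TBI and sham rats, the locus as a whole did not differ by more than the spread between rats. The difference in log2 CPM summed over the locus was 0.01 (exact permutation test, two-sided, p = 0.960, adjusted p = 0.960 over 5 tests). The share of chromosome 18 tags was 2.59 ± 0.478% in sham and 2.68 ± 0.130% in TBI rats (exact permutation test, two-sided, p = 0.730, adjusted p = 0.960). Locus regions without a tag made up 10.0 ± 5.94% in sham and 9.26 ± 3.63% in TBI rats (exact permutation test, two-sided, p = 0.841, adjusted p = 0.960). Without sham rat 5, the first 2 differences became -0.06 log2 units and -0.0833 percentage points, both of the opposite sign, with exact permutation p of 0.508 and 0.619. The difference in regions without a tag went from -0.735 to -2.78 percentage points (exact permutation p of 0.349).

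Correlation distances over the tested regions, 1 minus Pearson's r of log2 CPM, averaged 0.0673 between and 0.0649 within groups (exact permutation test, one-sided, p = 0.262, adjusted p = 0.655). Without sham rat 5 they averaged 0.0589 and 0.0503 (exact permutation p = 0.0159, adjusted p = 0.0397 over the same 5 tests). Of these 5, 1 is the density test of the locus against the rest of the chromosome, which does not compare the groups. Its p was smaller (exact sign-flip p = 0.00391), which lowered the adjusted value, and adjustment over the group tests alone was not run. The result also rests on leaving sham rat 5 out. The mean r of sham rat 5 with the other rats was 0.893, whereas the others had 0.922 to 0.949.

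No 50-kb bin passed the test. Of 18 locus bins with enough tags, 0 had an unadjusted p under 0.01 in edgeR's quasi-likelihood test, beside 0.404% of 25736 bins in the genome, and 0 under 0.05, beside 2.82%. In 0 of them did the 2 groups' values not overlap, beside 0.734% of all bins. DESeq2's Wald test also gave 0 at both thresholds, beside 158 and 755 of 25733 bins in the genome. The smallest p among bins with more tags in TBI was at 0 kb, where sham rats 1 to 5 had 34.9, 31.3, 32.3, 32.3 and 31.7 CPM and TBI rats 1 to 5 had 34.1, 32.5, 36.0, 31.1 and 34.0. Its log2 fold change was 0.10 ± 0.07 (SE) and the groups overlapped (edgeR, unadjusted p of 0.175, adjusted p = 0.998). Next came the bins at 800 kb (0.17 ± 0.13, edgeR p of 0.183) and 1350 kb (0.09 ± 0.10, edgeR p of 0.365). On the other side were the bins at 1500 kb (-0.09 ± 0.11, edgeR p of 0.414), 50 kb (-0.09 ± 0.12, edgeR p of 0.435) and 150 kb (-0.03 ± 0.07, edgeR p of 0.689).

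The dense bins at 350 and 400 kb had log2 fold changes of 0.07 ± 0.18 and 0.03 ± 0.19, which turned to -0.09 ± 0.10 and -0.13 ± 0.10 without sham rat 5. In the bin at 400 kb, with the largest within-group SD of the tested bins (0.331), sham rats ranged from 80.8 to 186.5 CPM and TBI rats from 120.5 to 147. The bin at 200 kb followed with an SD of 0.318. Over the 18 bins 12 had more tags in TBI, with a median log2 fold change of 0.05, beside -0.01 over all bins. Without sham rat 5, 5 of 18 did, the median was -0.04, and 1 bin, at 50 kb, had an unadjusted p under 0.01 (-0.21, edgeR p of 0.00871), beside 1.04% of all bins.

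Of the 272 regions, 154 (56.6%) passed the filter of 117 tags over all rats and held 96.2% of the locus's tags, while 118 were not tested. Those tested held 41.3 tags per rat in the median. At an unadjusted p under 0.01, 2 of 154 (1.30%) were called, beside 35 of 11893 (0.294%) in the rest of the chromosome and 0.266% of all 358249 regions. Both had more tags in TBI, a direction called in 0.098% of all regions, and 0 had fewer, beside 0.168%. At p under 0.05 there were 5 (3.25%), beside 2.45% of all regions. After Benjamini-Hochberg adjustment of edgeR's quasi-likelihood p over all regions, 0 passed an adjusted p of 0.05, and by DESeq2 0 did so. Log2 fold changes ran from -0.91 to 1.42 with a median of 0.01, beside -0.02 over the rest of the chromosome, 80 regions higher and 74 lower in TBI. The 38 long regions, all tested, kept within -0.19 and 0.20, with a smallest edgeR p of 0.241. Without sham rat 5, 33 of the 38 had a negative log2 fold change, with a median of -0.09 and a range from -0.32 to 0.13. These regions share the same libraries, and long regions elsewhere were not counted in this way. Over all tested locus regions, 57 of 152 were higher in TBI without sham rat 5, and 87 of 151 without sham rat 4. The medians were -0.045 and 0.033, beside -0.007 and -0.014 over the rest of the chromosome.

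**Figure D4:**
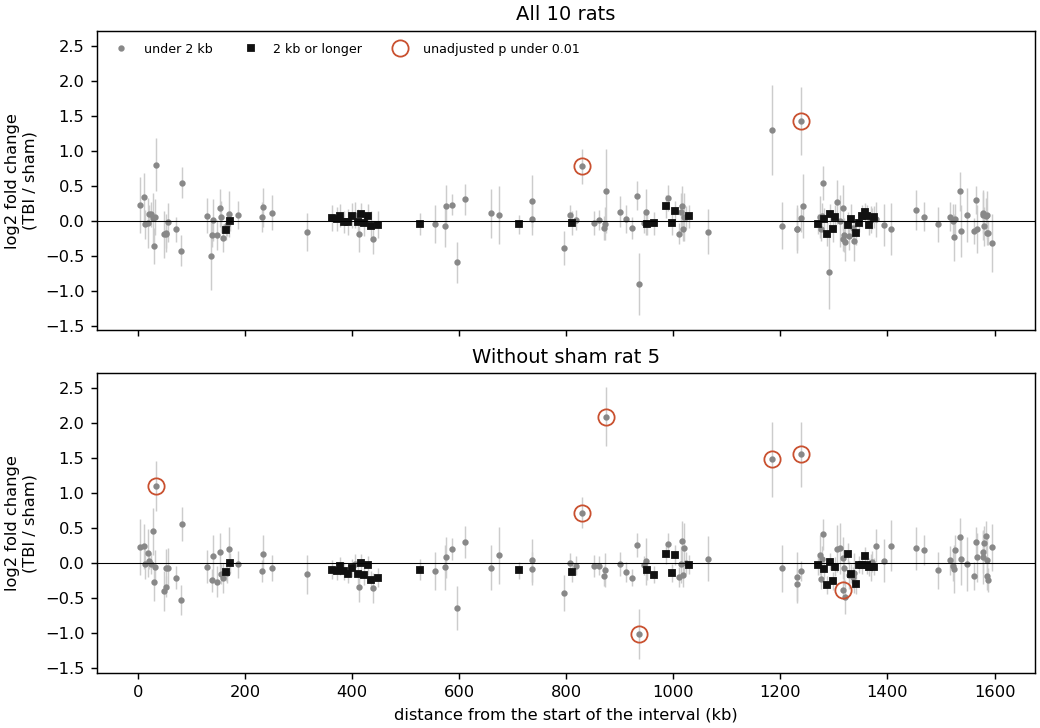
Log2 fold change, TBI over sham, of each tested locus region (bars, SE) against its distance from the start of the interval in kb, with all 10 rats (top) and without sham rat 5 (bottom). Circles mark an unadjusted edgeR p under 0.01, 2 regions with all rats and 7 without sham rat 5, and the squares of the long regions lie between -0.19 and 0.20 in the upper panel and between -0.32 and 0.13 in the lower.

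The first of the 2 called regions was chr18:30128306-30130024 (1718 bp). Sham rats 1 to 5 had 48, 61, 95, 90 and 54 tags, and TBI rats 1 to 5 had 94, 66, 271, 69 and 158. TBI rats 1, 3 and 5 stood above all sham rats in CPM, while TBI rats 2 and 4 lay in the sham range. The means were 4.45 ± 0.616 and 7.60 ± 3.83 CPM, the log2 fold change 0.78 ± 0.25 (SE), and edgeR's unadjusted p 0.00606 (adjusted p = 1.00). Without TBI rat 3 the log2 fold change was 0.45 (edgeR p of 0.0495). It also missed the threshold without sham rat 1, sham rat 2, TBI rat 1 or TBI rat 5. TBI rats 1, 3 and 5 were also the only rats with tags at the untested chr18:29555273-29555796 and chr18:29909078-29909337. Why these rats stood apart was not tested.

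The second called region, chr18:30539188-30539572 (384 bp), rested on few tags. They were 4, 2, 2, 15 and 8 in sham rats 1 to 5 and 8, 24, 32, 12 and 14 in TBI rats 1 to 5. TBI rats 2 and 3 were highest, and sham rat 4 lay above the other 3 TBI rats in CPM. The means were 0.391 ± 0.296 and 1.08 ± 0.546 CPM, with a log2 fold change of 1.42 ± 0.48 (SE) and an edgeR p of 0.00786 (adjusted p = 1.00). Without sham rat 1, 2 or 3 it missed the threshold, and without TBI rat 2 or TBI rat 3 it fell below the filter on low counts and was not tested.

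In 2 regions (1.30%, beside 0.502% of all regions) the CPM values of the groups did not overlap, although neither was called. At chr18:29381499-29382235 the tags were 11, 20, 25, 27 and 20 in sham rats and 24, 23, 44, 34 and 37 in TBI rats, 1.32 ± 0.252 and 1.93 ± 0.199 CPM, with a log2 fold change of 0.54 ± 0.22 (edgeR p of 0.0256). At chr18:29895737-29896352 they were 18, 13, 17, 28 and 15 against 9, 11, 17, 15 and 13, or 1.19 ± 0.296 and 0.779 ± 0.0852 CPM, with -0.60 ± 0.30 (edgeR p of 0.0585). The first was higher and the second lower in every TBI rat than in any sham rat.

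The remaining regions with the smallest p in their direction all overlapped between groups. Higher in mean in TBI were chr18:30578443-30579111 (log2 fold change 0.54 ± 0.24, edgeR p of 0.0401) and chr18:29332658-29333367 (0.80 ± 0.38, edgeR p of 0.0499). Lower were chr18:30235020-30235858 (-0.91 ± 0.44, edgeR p of 0.0552), with 31, 31, 39, 50 and 24 tags in sham rats and 18, 33, 0, 25 and 20 in TBI rats, chr18:29380429-29380970 (-0.43 ± 0.22, edgeR p of 0.0635), chr18:30095837-30096440 (-0.39 ± 0.24, edgeR p of 0.120) and chr18:30616987-30618481 (-0.26 ± 0.18, edgeR p of 0.160). The region at 30235020 held the TBI rat without a tag, and chr18:29380429-29380970 lay next to the non-overlapping region at 29381499 with the opposite direction.

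Without sham rat 5, 7 of 152 tested locus regions (4.61%) had an unadjusted p under 0.01, beside 106 of 11886 (0.892%) in the rest of the chromosome and 0.792% of all regions. Of these, 5 had more tags in TBI and 2 fewer. They were both regions called with all rats, chr18:29332658-29333367 (1.10, edgeR p of 0.00439), chr18:30173906-30174379 (2.09, edgeR p of 1.49e-05, adjusted p = 0.232), chr18:30483166-30483668 (1.48, edgeR p of 0.00946), chr18:30235020-30235858 (-1.02, edgeR p of 0.00739) and chr18:30616987-30618481 (-0.38, edgeR p of 0.00865). With all 10 rats, chr18:30173906-30174379 had a log2 fold change of 0.43 ± 0.60 (edgeR p of 0.485). None of the 7 passed an adjusted p of 0.05 by edgeR's quasi-likelihood test.

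**Figure D5:**
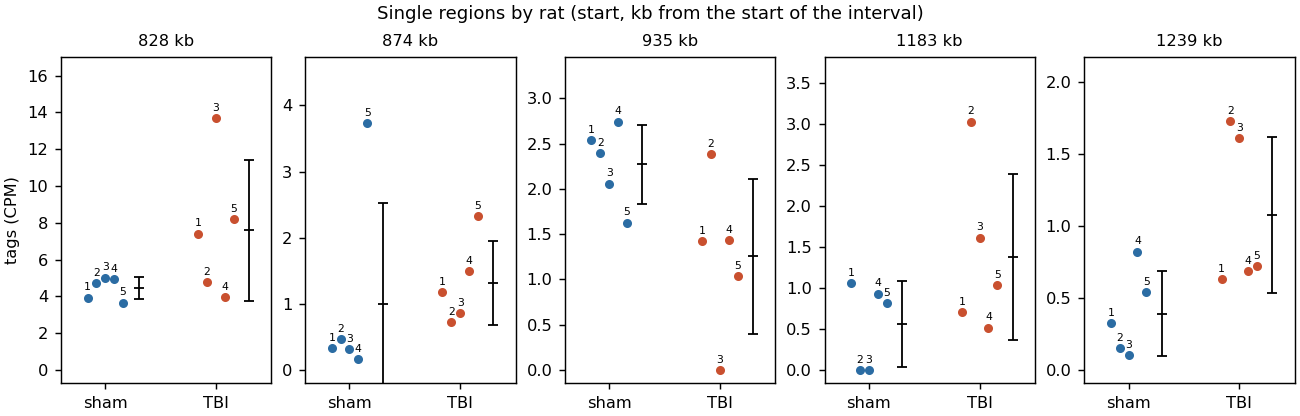
Tags in TMM-scaled CPM (vertical) in each of 5 sham (blue) and 5 TBI (red) rats, numbered within their group, with mean ± SD, at 5 regions of the locus titled by distance of their start from the start of the interval in kb. At 828 kb TBI rat 3 is highest with 13.7, at 874 kb sham rat 5 is highest with 3.73, and at 935 kb TBI rat 3 has 0.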

How the data were processed

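The authors aligned single reads to RN4 with BWA, ran MACS on every pair of samples, merged the resulting regions with BEDTools and removed duplicate reads at 1 location. The deposited values are raw tag counts per region and rat, not scaled for depth, with positions printed as deposited, and whether they count from 0 or 1 is not stated. Regions entered the table because some pair of libraries differed there. The spread between rats is thus that of regions selected for such differences, in the locus and elsewhere. The same holds for the number, length, gaps, covered share and window ranks of regions, which do not describe all methylated DNA. Groups came from the treatment labels and columns from the rat numbers, and 0 columns of other samples were left out.

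Counts were scaled by TMM (CPM; log2 CPM with a prior count of 2) and tested with edgeR 4.0.16 in R 4.3.3 (glmQLFit, glmQLFTest, trended dispersion, no covariates) over all regions that reached the 50th percentile of the tag sum (117 tags), the filter of the study's methods, and over tags summed in 50-kb bins (at least 2050 tags). A call is an unadjusted p under 0.01, the study's threshold, and adjusted p-values are by Benjamini-Hochberg over all features tested. The 5 tests of the whole locus were exact permutation tests over rats (scipy 1.17.1), adjusted together. Scripts were tested on simulated data. Nothing says which rats shared a batch. Tag sums carry counting error, so sparse regions are less precise than dense ones.

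The interval, the lists and the rat left out were chosen with earlier results of these data known. Regions named are the 5 with most tags, the 3 longest, the 5 lowest p in either direction, the 3 with the largest and the 3 with the smallest within-group SD, and those with 0 tags in 2 or more rats and 20 or more in 2 or more others. The untested regions at 29555273 and 29909078 were named outside these lists, for the rats that held their tags. Bins named are the 3 with most regions, the 3 with most tags, those with fewest regions, the 3 lowest p in either direction and the 2 with the largest SD. Alternatives were other scalings, filters, tests (DESeq2 1.42.0 among them), bins and thresholds, and leaving out each rat.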

Additional observations from a re-analysis of the deposited data

Results flagged for a closer look

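Of 74 sets of 5 values examined in the locus, 3 held a rat whose gap to its nearest neighbour was above Dixon's critical value of 0.71 of the group's range, where chance gives about 1 in 20, or 3.7. Sham rat 5 had a mean r of 0.893 with the other rats, while the other sham rats had 0.932 to 0.942. At chr18:30173906-30174379 sham rat 5 had 3.73 CPM, and the other 4 sham rats had 0.165 to 0.463. In the bin at 0 kb sham rat 1 had 34.9 CPM, and the other sham rats had 31.3 to 32.3.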

How the results depend on the processing

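No paired analysis was possible because the labels number all rats consecutively, sham and TBI rats having no number in common. The number of locus regions with an unadjusted p under 0.01 was 2 under other scalings and tests, beside 870 to 1520 over all regions. In a fit to chromosome 18 alone it was 2, beside 38 of the 12047 regions fitted. Without the filter it was 5 of 271, beside 3824 of 715411. With at least 10 tags in every rat it was 1 of 121, beside 741 of 247206. With 1 rat left out it was 0 to 7, beside 613 (without TBI rat 3) to 2841 (without sham rat 5) over all regions. With a threshold of p under 0.05 it was 5, and 0 with an adjusted p under 0.05. The number of locus bins called was 0 under other scalings, tests, bins and thresholds, and 0 to 1 with 1 rat left out. The 1 was without sham rat 5, where 269 of 25743 bins in the genome were called. The difference in total locus tags ran from -0.0619 to 0.0836 log2 units with 1 rat left out and was negative without sham rat 2 (-0.03), sham rat 5 (-0.0619) and TBI rat 3 (-0.02). The difference in the share of chromosome 18 tags ran from -0.0833 to 0.228 percentage points and was negative without sham rat 5. The difference in regions without a tag ran from -2.78 to 0.809 percentage points and was positive without sham rat 1 (0.625), sham rat 4 (0.809) and TBI rat 5 (0.386). The distance between minus within groups ran from -0.00418 to 0.00882 and was negative without TBI rat 2 (-0.00173) and TBI rat 3 (-0.00418). Only without sham rat 5 (0.00860) did this distance have an exact permutation p under 0.05. It was also negative over regions with at least 10 tags in every rat (-0.00122) and by Spearman's rho (-0.000663). The cause of these changes was not tested. The log2 density ratio of the locus to the rest of the chromosome stayed between 0.64 and 0.89 in every alternative, and none of the 10 regions named for their p changed the sign of its log2 fold change in any alternative run. Counts limit the 118 regions that were not tested, each with at most 114 tags over 10 rats.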
